A study of Mus musculus with 10 samples.

Results

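The transcripts of 8 mouse genes tied to epithelial splicing were followed in obstructed and sham-operated kidneys. Cd44, Fgfr2, Ctnnd1, Enah, Numb and Fscn1 encode adhesion, signalling or actin-regulating proteins, and all but Fscn1 are textbook cases of exons used differently by epithelial and mesenchymal cells. Esrp1 and Esrp2 encode the epithelial splicing regulatory proteins. All their listed transcripts were taken, 35 of 26686 transcripts in the transcript table, and the genes were 8 of 13920 in the gene table. The share of a transcript is its percentage of the summed values of the listed transcripts of its gene in a library. The genes were selected on known splicing in epithelia together with their gene values and transcript shares in these same sham and UUO libraries, so their differences are given as a description, and the calls quoted for them support nothing further.

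Whole left kidneys of C57BL/6 mice were sampled after unilateral ureteral obstruction (UUO), an operation that blocks the outflow of the kidney and leads to tubular injury and scarring, or after a sham operation. Each group had 5 libraries of total RNA, and no drug, transgene or allele is named for either. Time after surgery, sex, age and the pooling of animals are not given in the labels. Whether each library is a different animal is not stated either, so any p-value reflects variation among these samples, which may be technical. Values are FPKM, fragments scaled by transcript length and by library size, and read counts were not used here, so the depth behind each value is unknown.

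ESRP1 and ESRP2 bind GU-rich RNA beside alternative exons of epithelial transcripts and set whether these exons are kept or skipped. When cells lose epithelial character, loss of the ESRP proteins moves CD44 to its standard form without variable exons, FGFR2 from its IIIb to its IIIc form, and ENAH to a form without a short epithelial exon. In the kidney the tubules are epithelial, while fibroblasts, endothelium and leukocytes are not.

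Marker genes show what else moved in these organs. All 7 leukocyte markers were higher in UUO, with summed values of 18.1 to 28.1 FPKM in sham and 412 to 878 in UUO (limma, Benjamini-Hochberg adjusted p below 0.05 over all genes). All 7 fibroblast and myofibroblast markers were higher, from 17.3 to 30.0 FPKM in sham to 309 to 620 in UUO. All 5 proximal tubule markers were lower, from 1053 to 1518 down to 95.0 to 669 FPKM. General epithelial markers were higher in 4 of 6 cases and lower in 1, with sums of 268 to 492 in sham and 599 to 698 FPKM in UUO. Markers of distal tubule and collecting duct were lower in 6 of 9 cases and those of the thick ascending limb in 2 of 3. All 3 urothelial markers were higher, with sums of 0.412 to 23.7 FPKM in sham and 20.4 to 195 in UUO. No marker of these groups was at 0 throughout the sham libraries. Sham 4 stood apart: its epithelial sum was 492 FPKM against at most 299 in the other sham libraries, and its urothelial sum was 23.7 against at most 6.86. In whole-organ RNA, fewer cells of a type and less RNA per cell cannot be told apart.

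At the gene level 5 of the 8 genes were called higher in UUO and 0 lower, where 74.7% of all 13202 tested genes were called, 58.5% higher and 16.1% lower (limma on log2(FPKM + 1), with a Benjamini-Hochberg adjusted p below 0.05 over all genes). At an unadjusted p below 0.05, 0 of the 8 were lower as well, beside 2213 of all 13202 tested genes. The called genes were Cd44, Ctnnd1, Enah, Numb and Fscn1. Sham and UUO were fully separated in 3 of the 8, namely Cd44, Ctnnd1 and Fscn1, beside 59.7% of all tested genes. The log2 difference of the median tested gene was itself 0.40, and it was -0.0063 with median-of-ratios scaling, under which 49.2% of the called genes were higher rather than 78.4%. Relative to that median gene the log2 differences were 3.74 for Cd44 and 1.30 for Fscn1, and between -0.50 and 0.09 for the other 6 genes. In sham kidneys Ctnnd1 had the highest length-scaled level, at 16.7 ± 2.72 FPKM (mean ± SD, n = 5), followed by Esrp2 and Numb, which did not differ beyond their spread. Esrp1, Fscn1, Enah and Fgfr2 followed with means of 3.14, 1.94, 1.91 and 1.63 FPKM and overlapping ranges, and Cd44 stood lowest.

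**Figure D1:**
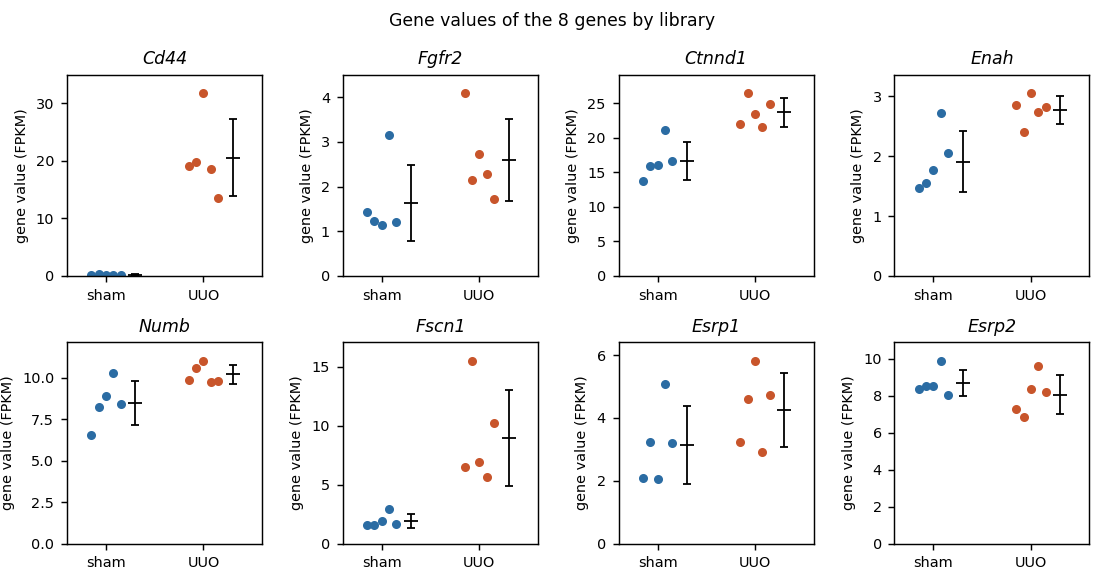
Gene values in FPKM (vertical axes, linear, from 0) of the 8 genes in the 5 sham (blue) and 5 UUO (orange) libraries, with each point a library and the black mark the group mean with its SD. Cd44 and Fscn1 show the widest gaps between groups, while Esrp1, Esrp2 and Fgfr2 overlap.

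Neither splicing factor gene was called in the values as deposited, and the call of each depended on the scaling. Esrp1, an RNA-binding protein found in epithelia (chromosome 4, 11331933 to 11386783, GRCm38), stood at 2.08, 3.25, 2.05, 5.10 and 3.20 FPKM from Sham 1 to Sham 5 and at 3.22, 4.60, 5.82, 2.92 and 4.72 from UUO 1 to UUO 5. The groups overlapped, and Sham 4 was the highest sham library. The group means were 3.14 ± 1.24 and 4.26 ± 1.19 FPKM (n = 5 each), and without Sham 4 the sham mean was 2.65. The log2 difference was 0.36 (standard error 0.21), and 0.52 without Sham 4, where Esrp1 was called higher. After rescaling to equal sums it was 0.52 and also called, while it was -0.03 with median-of-ratios scaling and -0.22 with quantile normalization, neither called. Esrp2, its close relative (chromosome 8, 106130319 to 106136974), stood at 8.37, 8.53, 8.53, 9.89 and 8.05 FPKM in sham and at 7.28, 6.85, 8.35, 9.59 and 8.21 in UUO. The means were 8.67 ± 0.707 and 8.05 ± 1.06 FPKM, and the log2 difference was -0.10 (standard error 0.09). Its difference depended on the scaling, at -0.56 with median-of-ratios scaling, -0.50 with quantile normalization and 0.08 after rescaling to equal sums. Esrp2 was called lower under the first 2 of these scalings and not in the values as deposited.

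No transcript of either factor gene was called on share. Esrp1 had 5 listed transcripts, and Esrp1-204, which lacks both alternative internal exons of the gene, held 29.0% to 37.8% of the sum in sham and 24.5% to 34.0% in UUO. Esrp1-203, which has both, held 28.4 ± 6.05% and 32.4 ± 6.95%. Esrp1-201 held 8.99 ± 5.73% in sham and 17.3 ± 3.75% in UUO, and Esrp1-202 held 22.0 ± 8.99% and 13.3 ± 4.30%. Esrp1-206, the shortest, held 4.19% to 15.1% over the 10 libraries. Differences of mean share within Esrp1 ran from -8.66 to 8.33 percentage points, and the groups overlapped for all 5 transcripts. Exon 2 of the pair, of 110 bases, was present in 59.1 ± 7.23% of the listed Esrp1 transcripts in sham and 52.8 ± 5.35% in UUO. Esrp2-201 held 93.0% to 96.2% of the Esrp2 sum in sham and 93.5% to 100% in UUO, and Esrp2-207 held the rest.

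The sequences of exons known from the epithelial forms are shown here because the transcripts below are grouped by them. They are taken from GENCODE M21 transcripts on GRCm38, written 5′ to 3′, with the alternative exon in capitals and 12 bases of the neighbouring exons in lower case. The Fgfr2 IIIb exon lies on the minus strand at chr7:130199758-130199905. The IIIb and IIIc exons encode the end of the ligand-binding domain, and each listed Fgfr2 transcript holds exactly 1 of them. The Enah exon lies on the minus strand at chr1:181911597-181911659.
Fgfr2 IIIb exon: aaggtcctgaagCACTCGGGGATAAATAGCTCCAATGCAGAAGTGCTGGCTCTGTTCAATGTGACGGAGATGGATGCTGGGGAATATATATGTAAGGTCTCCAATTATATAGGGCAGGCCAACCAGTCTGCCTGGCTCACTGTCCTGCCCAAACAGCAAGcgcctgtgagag
Enah exon: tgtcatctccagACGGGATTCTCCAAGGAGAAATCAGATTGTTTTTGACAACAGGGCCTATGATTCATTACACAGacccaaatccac

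Fgfr2 encodes a receptor tyrosine kinase for fibroblast growth factors (chromosome 7, from 130162451). Its gene value was 1.43, 1.24, 1.14, 3.14 and 1.21 FPKM from Sham 1 to Sham 5 and 4.09, 2.15, 2.73, 2.27 and 1.71 from UUO 1 to UUO 5. The groups overlapped only through Sham 4. The means were 1.63 ± 0.851 and 2.59 ± 0.915 FPKM, with a log2 difference of 0.46 and a standard error of 0.21, and the sham mean without Sham 4 was 1.25 ± 0.122. Without Sham 4 the log2 difference was 0.64 and the gene was called higher, as it was without UUO 5 (0.56) and after rescaling to equal sums (0.59). It was 0.13 with median-of-ratios scaling and -0.20 with quantile normalization, neither called. Transcripts with the IIIb exon held 93.5%, 99.6%, 91.1%, 15.96% and 0% of the Fgfr2 sum from Sham 1 to Sham 5. In UUO they held 99.6%, 9.67%, 62.4%, 80.1% and 8.80%. Each group thus had libraries near both ends, and the means of 60.0 ± 47.9% and 52.1 ± 41.3% lay well within the spread. Sham 4 and Sham 5 were low among the sham libraries, and UUO 2 and UUO 5 among the UUO libraries.

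The single Fgfr2 transcripts traded places from library to library. Fgfr2-207, a IIIc form, held 0%, 0.402%, 8.79%, 65.1% and 100% in sham and 0%, 90.3%, 0%, 17.5% and 91.2% in UUO. Fgfr2-211, a IIIb form, held 86.4% in Sham 2 and 61.3% in UUO 1 and at most 28.5% elsewhere. Fgfr2-204, a IIIb form, held 88.9% in Sham 3 and was listed at 0 in Sham 2, Sham 5, UUO 2 and UUO 5. Fgfr2-210, the other IIIb form, held 10.5 ± 12.4% and 19.4 ± 11.5%, and Fgfr2-215, the other IIIc form, held 37.6% in UUO 3 and at most 18.97% elsewhere. These shares describe only part of the gene. The 5 listed transcripts, of 27 annotated for Fgfr2, held 38.2% to 82.9% of the gene value in sham and 13.6% to 93.2% in UUO, measured in bases covered. The remaining gene value was not accounted for by the transcripts used here, and the deposited gene locus ends at 133123350, beyond the last listed transcript at 130266263.

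**Figure D2:**
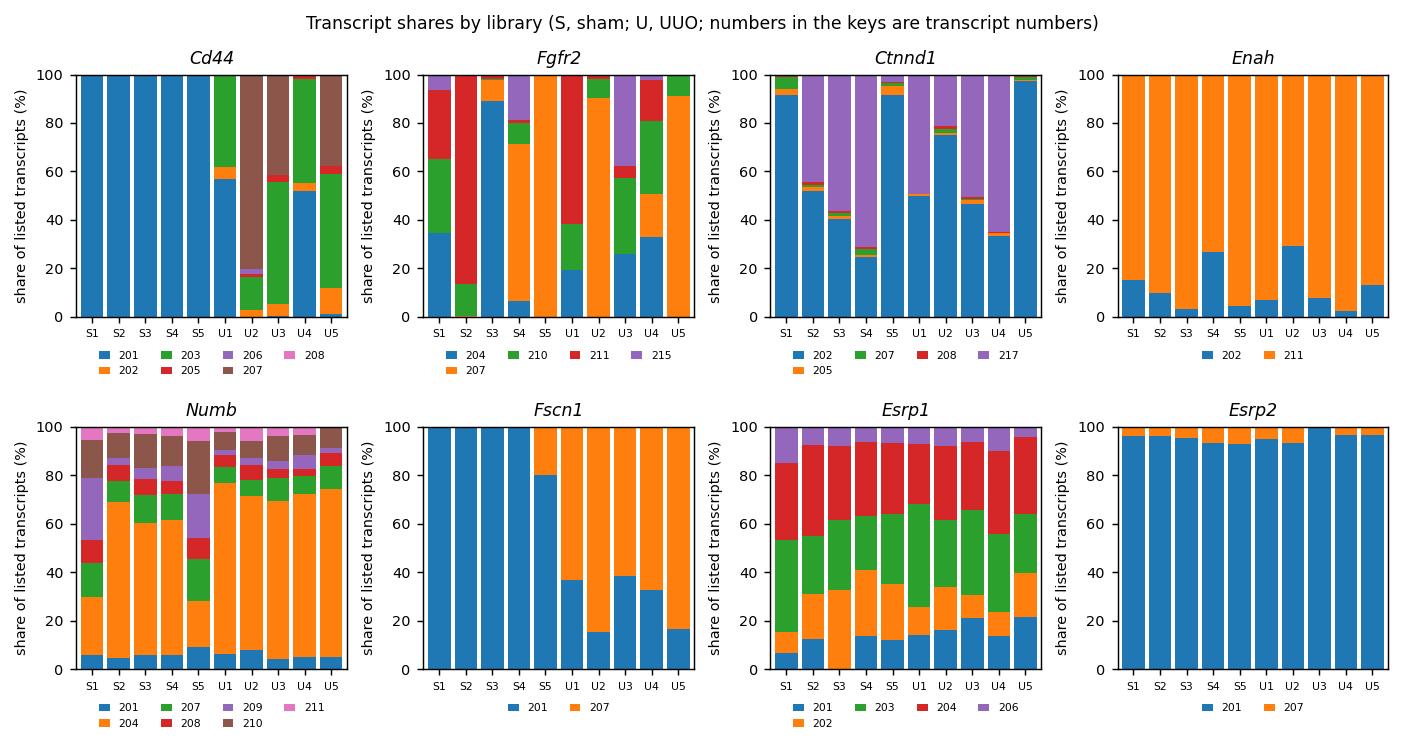
Share of each listed transcript in the sum of its gene (vertical axes, percent) for the 8 genes, with 1 stacked bar for each library, S1 to S5 for sham and U1 to U5 for UUO, and colours for the transcript numbers. The bars of Fgfr2 and Ctnnd1 differ as much within groups as between them, while those of Fscn1 change colour between the groups.

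Enah encodes an actin regulator of the Ena/VASP family (chromosome 1, 181896384 to 182019990). Its gene value was 1.47, 1.55, 1.76, 2.72 and 2.05 FPKM in sham and 2.86, 2.41, 3.06, 2.74 and 2.81 in UUO, with means of 1.91 ± 0.503 and 2.78 ± 0.236. Sham 4 lay within the UUO range and the other sham libraries below it. The log2 difference was 0.39 with a standard error of 0.11, close to the shift of the median gene, and it was 0.04 and not called after median-of-ratios scaling. Quantile normalization gave -0.27, called lower. The form with the 63-base exon known from epithelia, Enah-202, held 15.1%, 9.96%, 3.42%, 26.9% and 4.62% of the sum in sham. In UUO it held 7.14%, 29.2%, 7.93%, 2.58% and 12.97%. The ranges covered each other and the means were 12.0 ± 9.53% and 12.0 ± 10.3%. Enah-211, which skips the exon, held the rest, and its level was 3.20 ± 0.638 FPKM in sham and 4.66 ± 0.681 in UUO. The 2 forms also differ outside the coding part, which has 1886 bases in Enah-202 and 9606 in Enah-211. Their shares therefore do not measure the use of the exon alone.

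Ctnnd1 encodes catenin delta-1, which holds cadherins at the cell surface (chromosome 2, 84600071 to 84650765). Mesenchymal cells are known to use the form that starts at the first start codon, and epithelial cells shorter forms that start at a later codon. The gene value was 13.7, 15.96, 16.01, 21.1 and 16.6 FPKM in sham and 21.99, 26.5, 23.4, 21.6 and 24.8 in UUO, so the groups did not overlap. The means were 16.7 ± 2.72 and 23.7 ± 2.03 FPKM, and the log2 difference was 0.49 (standard error 0.11). After median-of-ratios scaling it was 0.0032 and Ctnnd1 was not called. Transcripts with the first-start exon, Ctnnd1-202 and Ctnnd1-217, held 91.8%, 96.3%, 96.5%, 95.7% and 94.5% in sham and 99.1%, 96.3%, 97.4%, 98.4% and 97.2% in UUO. Listed forms with the first-start exon therefore held most of the Ctnnd1 sum in both groups, with means of 95.0 ± 1.96% and 97.7 ± 1.08%. The 3 forms that lack it, Ctnnd1-205, Ctnnd1-207 and Ctnnd1-208, each held at most 5.19% of the sum in any library. These 3 have 2557 to 3272 bases outside the coding part, against 2311 in Ctnnd1-202 and 2566 in Ctnnd1-217. The shares therefore do not measure the use of the first-start exon alone.

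The larger variation in Ctnnd1 lay between its 2 main forms, within both groups. Their coding parts differ by an 18-base exon at chr2:84612532-84612549 and a 63-base exon at chr2:84605184-84605246, both on the minus strand and both present in Ctnnd1-217 and absent from Ctnnd1-202. They also differ outside the coding part, which has 2566 bases in Ctnnd1-217 and 2311 in Ctnnd1-202. The exons are shown in capitals with 12 bases of their neighbours.
Ctnnd1 18-base exon: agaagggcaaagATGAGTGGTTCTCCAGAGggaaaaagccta
Ctnnd1 63-base exon: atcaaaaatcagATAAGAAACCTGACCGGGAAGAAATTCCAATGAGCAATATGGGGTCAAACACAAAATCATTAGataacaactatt
Ctnnd1-217 held 0%, 44.4%, 56.2%, 71.1% and 3.10% of the sum from Sham 1 to Sham 5 and 49.2%, 21.4%, 50.7%, 64.9% and 0% from UUO 1 to UUO 5. Sham 1, Sham 5 and UUO 5 were at or near 0, and the other libraries of both groups lay between 21.4% and 71.1%. The means were 35.0 ± 31.9% and 37.2 ± 26.1%. Ctnnd1-202 held most of the rest, with means of 60.0 ± 30.4% and 60.5 ± 25.5%. Unlike for Fgfr2, the listed transcripts held 89.5% to 98.3% of the Ctnnd1 gene value in every library.

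Numb encodes an adaptor that restrains Notch signalling and directs endocytosis (chromosome 12, 83794034 to 83921934). Its gene value was 6.57, 8.24, 8.92, 10.3 and 8.42 FPKM in sham and 9.84, 10.6, 11.0, 9.75 and 9.78 in UUO, with means of 8.49 ± 1.34 and 10.2 ± 0.584. Sham 4 lay inside the UUO range. The log2 difference of 0.25 (standard error 0.10) was smaller than the shift of the median gene, and the call was lost when any library but Sham 4 was left out. The difference was -0.21 after median-of-ratios scaling, called lower, and -0.12, not called, under quantile normalization. Numb proteins differ by a 33-base exon in the phosphotyrosine-binding domain, at chr12:83825259-83825291, and a 147-base exon in the proline-rich region, at chr12:83797197-83797343. Both lie on the minus strand and are shown in capitals. The forms also differ outside the coding part, which has 1770 bases in Numb-204 and 3 in Numb-201, Numb-207 and Numb-210. The shares of Numb forms and exons below therefore do not rest on these exons alone.
Numb 33-base exon: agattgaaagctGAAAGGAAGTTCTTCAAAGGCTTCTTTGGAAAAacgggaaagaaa
Numb 147-base exon: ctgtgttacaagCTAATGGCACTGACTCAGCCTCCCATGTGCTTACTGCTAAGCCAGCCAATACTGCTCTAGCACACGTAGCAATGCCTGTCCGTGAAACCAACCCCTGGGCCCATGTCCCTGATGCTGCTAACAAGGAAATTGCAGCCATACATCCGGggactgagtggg

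Numb-204, which lacks both exons, was the most abundant form in 8 of the 10 libraries, and its values in Sham 1 and Sham 5 stood apart. It held 24.3%, 64.2%, 54.2%, 55.5% and 18.7% of the sum from Sham 1 to Sham 5, and 70.4%, 63.5%, 65.2%, 67.1% and 69.3% from UUO 1 to UUO 5. Only Sham 2 reached the UUO range. The means were 43.4 ± 20.4% and 67.1 ± 2.83%, a difference of 23.7 points that was not called. The 147-base exon was present in 49.4%, 21.3%, 30.0%, 27.3% and 58.5% of the listed Numb transcripts that span it in sham and in 15.6%, 15.8%, 22.2%, 17.6% and 18.96% in UUO. Its means were 37.3 ± 15.9% and 18.001 ± 2.71%, and 26.2% in sham without Sham 1 and Sham 5. The 33-base exon was present in 30.4 ± 7.56% in sham and 21.4 ± 2.90% in UUO. In Sham 1 and Sham 5 the listed transcripts held only 25.6% and 19.7% of the Numb gene value, against 89.6% or more in every other library. Leaving out both libraries, an alternative chosen after the data were seen, brought the difference of Numb-204 to 9.13 points.

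Of the other Numb forms, Numb-210, which has the 147-base exon alone, held 14.7 ± 4.37% in sham and 8.22 ± 1.40% in UUO. Numb-207, which has both exons, held 12.5 ± 3.48% and 7.80 ± 1.34%. Numb-201, which has the 33-base exon alone, held 6.30 ± 1.69% and 5.77 ± 1.42%. Numb-208 and Numb-209 end before the 147-base exon and held 7.34 ± 1.59% and 11.5 ± 9.93% in sham and 4.79 ± 1.17% and 3.25 ± 1.52% in UUO. Numb-211 held at most 5.98% in any library.

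Cd44 encodes a receptor for hyaluronan and osteopontin (chromosome 2, 102811141 to 102901665). Its gene value was 0.208, 0.327, 0.0964, 0.164 and 0.134 FPKM from Sham 1 to Sham 5 and 19.1, 19.8, 31.8, 18.5 and 13.5 from UUO 1 to UUO 5. Every UUO library stood far above every sham library. The means were 0.186 ± 0.0890 and 20.5 ± 6.74 FPKM, a ratio of 110.5, and the log2 difference was 4.14 with a standard error of 0.18. Cd44 was below 0.5 FPKM in all sham libraries and was tested only because all 5 UUO libraries passed the filter, which fixed its direction. Cd44 is expressed by leukocytes, fibroblasts and injured tubules, and the summed leukocyte and fibroblast markers given above were higher in the same libraries. Their part in the Cd44 level was not tested.

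Cd44 has 10 variable exons between its constant ends. The last of them, of 207 bases on the minus strand at chr2:102831330-102831536, is held by every listed form but Cd44-203. It is shown in capitals beside the junction of the standard form, in which the upstream exon (lower case) runs straight into the downstream constant exon (capitals) and all 10 variable exons are skipped.
Cd44 last variable exon: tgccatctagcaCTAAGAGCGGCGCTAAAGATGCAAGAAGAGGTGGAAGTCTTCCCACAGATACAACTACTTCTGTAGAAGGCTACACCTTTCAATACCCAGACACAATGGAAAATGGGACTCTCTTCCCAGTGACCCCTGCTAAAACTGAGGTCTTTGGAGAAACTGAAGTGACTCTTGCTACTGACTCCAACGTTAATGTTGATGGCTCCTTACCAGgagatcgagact
Cd44 standard junction: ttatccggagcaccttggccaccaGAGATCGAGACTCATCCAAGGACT

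In sham kidneys Cd44-201, with all 10 variable exons, was the only form above 0, at 0.251, 0.395, 0.116, 0.198 and 0.162 FPKM, and all other forms were listed at 0. The sham sums lay below the 1 FPKM that the share test asked for, so Cd44 had no share test. In UUO the standard form Cd44-203 stood at 11.0, 3.91, 28.6, 12.4 and 11.5 FPKM. The forms with variable exons summed to 17.9, 25.1, 27.8, 16.6 and 12.8 FPKM, so that both kinds were present in all 5 UUO libraries. Variable forms made up 61.8%, 86.5%, 49.3%, 57.1% and 52.6% of the UUO sum, a mean of 61.5 ± 14.8% that was above the standard form in 4 of the 5 libraries. UUO 2 had the highest part in variable forms and UUO 3 the lowest. The forms also differ outside the coding part, which has 3274 bases in Cd44-201, 3314 in Cd44-207 and 1753 in Cd44-203. These percentages therefore do not measure the use of the variable exons alone.

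The variable forms themselves split the UUO libraries. Cd44-201 held 56.7% and 51.9% of the sum in UUO 1 and UUO 4 and at most 1.23% in the other UUO libraries. Cd44-207, with 5 variable exons, was listed at 0 in UUO 1 and UUO 4 and held 80.1%, 41.3% and 37.6% in UUO 2, UUO 3 and UUO 5. Both forms share a last exon of 3197 bases that no other listed form has, and together they held 56.7%, 80.3%, 41.7%, 51.9% and 38.9% from UUO 1 to UUO 5. Cd44-202, which has the last 5 variable exons, held 2.82% to 10.5%, Cd44-205 and Cd44-206 at most 3.24%, and Cd44-208 was listed at 0 in all 10 libraries. The first 3 variable exons occur in Cd44-201 alone, so their share moved with that form, from 0.123% to 56.7%.

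Fscn1 encodes fascin, which bundles actin filaments in protrusions and is scarce in most resting epithelia (chromosome 5, 142960343 to 142973185). Its gene value was 1.58, 1.58, 1.92, 2.93 and 1.67 FPKM from Sham 1 to Sham 5 and 6.55, 15.5, 6.90, 5.67 and 10.3 from UUO 1 to UUO 5. The groups did not overlap. The means were 1.94 ± 0.572 and 8.99 ± 4.06 FPKM, a ratio of 4.64 and 1.70 on the log2 scale (standard error 0.24), and the sham mean without Sham 4 was 1.69. With median-of-ratios scaling the log2 difference was 1.30, and with quantile normalization 1.16. Fascin is found in dendritic cells, endothelium and fibroblasts as well, and the part of the higher leukocyte and fibroblast markers in its level was not tested.

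Among those of the 8 genes that entered the share test, Fscn1 was the only one with a called share, and Cd44 was not tested. Fscn1-207 lacks a stretch of 483 bases within the first coding exon of Fscn1-201, at chr5:142960648-142961130 on the plus strand, which takes its coding length from 1479 to 996 bases and keeps the frame. The junction is shown with the bases before the gap in lower case and those after it in capitals.
Fscn1-207 junction: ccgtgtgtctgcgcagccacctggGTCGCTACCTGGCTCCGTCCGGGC
Fscn1-207 was listed at 0 in Sham 1 to Sham 4 and held 19.7% in Sham 5. In UUO it held 63.3%, 84.6%, 61.6%, 67.3% and 83.3% of the Fscn1 sum, so every UUO library stood above every sham library. The means were 3.95 ± 8.83% and 72.0 ± 11.1%, a difference of 68.1 points. In level Fscn1-207 went from at most 0.372 FPKM in sham to 5.16, 17.4, 5.40, 4.71 and 11.2 in UUO, while the full-length Fscn1-201 stood at 2.08 ± 0.711 FPKM in sham and 2.81 ± 0.519 in UUO. The listed transcripts held 95.2% to 99.9% of the gene value in every library. The call was lost when the replicate number was added to the fit, and Fscn1 was too low in sham for the share test at a minimum sum of 5 FPKM.

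**Figure D3:**
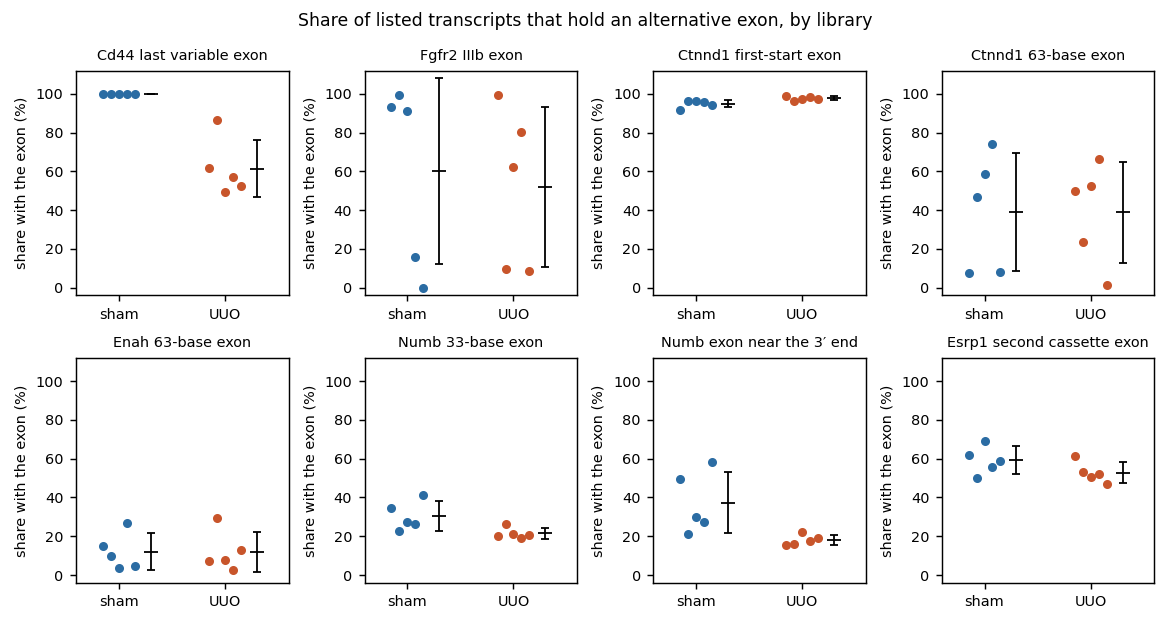
Percentage of the listed transcripts spanning an alternative exon that hold it (vertical axes) for 8 exons in Cd44, Fgfr2, Ctnnd1, Enah, Numb and Esrp1, with points for the 5 sham (blue) and 5 UUO (orange) libraries and the black mark for the group mean with its SD. The Fgfr2 IIIb exon and the Ctnnd1 63-base exon spread over most of the scale in both groups, and the Enah exon stays at 29.2% or below.

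Of the 35 transcripts 19 passed the filter on level and 4 of these were called higher in UUO and 0 lower, where 32.2% of the 21412 tested transcripts were called higher and 12.2% lower (limma, Benjamini-Hochberg adjusted p below 0.05). At an unadjusted p below 0.05, 0 were lower as well. The called transcripts were Cd44-202, Cd44-203, Enah-211 and Fscn1-207. All but Enah-211 passed the filter on low values only through UUO, which fixed their direction. Of the 24 transcripts in the share test 2 were called, both of Fscn1, and nothing is read from this count since the genes were chosen with these values known. Among all 14003 tested shares 105 were called, or 0.750%, and 0.828% passed the adjusted p with no minimum difference. At least 1 share was called in 1 of the 7 genes of the set in that test, beside 1.32% of all 5524 genes in it. Shares with no overlap between the groups numbered 2 of the 24, where 6.24% of all tested shares did not overlap. These were the same 2 Fscn1 transcripts, whose shares sum to 100% and so hold 1 difference with opposite signs. Without Sham 4, 8 of the transcripts were called on level. The percentage of all transcripts called without Sham 4 is not given here, so nothing is read from that count.

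The spread between libraries of a group sets what these shares can show. The median SD of a share within groups was 8.51 points for the 24 transcripts and 9.69 points for all 14003, while the median size of the difference between groups was 4.35 and 5.82 points. Fgfr2-207 had an SD within groups of 46.2 points, Fgfr2-211 of 31.8, Ctnnd1-217 of 29.2 and Ctnnd1-202 of 28.0. Differences as large as that of Fscn1-207 were rare, but larger ones existed among genes with a mean of at least 5 FPKM. Gucy1a3-201, of a subunit of soluble guanylate cyclase, went from 0% to 99.8 ± 0.393% (limma, adjusted p = 2.65e-09), and Il33-202, of the alarmin interleukin-33, from 95.0 ± 11.2% to 3.35 ± 0.911% (limma, adjusted p = 0.000646). Reps2-202, of an endocytic adaptor, went from 0.568 ± 1.27% to 82.6 ± 38.5% (limma, adjusted p = 0.0299), a call lost when any library other than UUO 2 was left out. The calls of Il33-202 and Reps2-202 were also lost when the replicate number was added to the fit (limma, adjusted p = 0.0546 and 0.225).

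**Figure D4:**
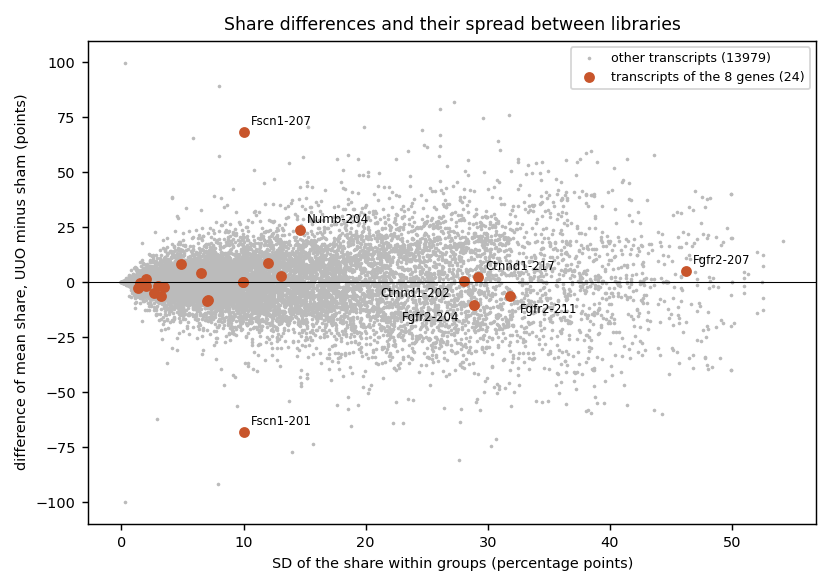
Difference of the mean share, UUO minus sham, in percentage points (vertical axis) against the SD of the share within groups (horizontal axis) for the 14003 transcripts in the share test, with the 24 transcripts of the 8 genes in orange. Fscn1-207 and Fscn1-201 lie at 68.1 and -68.1 points, and Fgfr2-207, with an SD of 46.2 points, lies farthest right of the 24 at a difference of 4.96 points.

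Other genes with alternative exons in epithelial-mesenchymal transition were called in shares near those of all genes, and none of their transcripts was called on share. Of 26 genes listed for this, 16 were higher and 3 lower in UUO (limma, adjusted p below 0.05), beside 58.5% and 16.1% of all tested genes, with a median log2 difference of 0.47 beside 0.40 for all genes. Fn1, the matrix protein fibronectin, had the largest difference, from 0.798 ± 0.160 to 30.8 ± 7.09 FPKM (limma, adjusted p = 1.94e-08). Rps24, a ribosomal protein gene with small alternative exons, had the highest mean and went from 43.1 ± 3.71 to 118 ± 14.6 FPKM (limma, adjusted p = 4.82e-07). Csnk1g3, a casein kinase, was lower, from 20.8 ± 1.78 to 14.8 ± 0.487 FPKM (limma, adjusted p = 0.000156). Of the 74 transcripts of 22 of these genes in the share test, limma called 0, and 17 had an unadjusted p below 0.05. Of all 14003 tested shares, 2200 had an unadjusted p below 0.05.

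Other splicing factors were higher in 13 and lower in 1 of 17 tested cases (limma, adjusted p below 0.05), beside 58.5% and 16.1% of all tested genes. Their median log2 difference was 0.55, against 0.40 for all genes. Rbfox2, a factor that acts on many of the same exons, went from 1.77 ± 1.03 to 6.20 ± 1.15 FPKM (limma, adjusted p = 0.000324). Hnrnpa1, an abundant nuclear RNA-binding protein, went from 69.2 ± 10.1 to 182 ± 24.1 FPKM (limma, adjusted p = 2.35e-06). Rbm47, an RNA-binding protein of epithelia, was lower, from 46.8 ± 4.55 to 29.9 ± 7.31 FPKM (limma, adjusted p = 0.00222). Limma called 0 of 41 of their transcripts on share, with 3 at an unadjusted p below 0.05, beside 2200 of all 14003 shares.

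Transcription factors of epithelial or mesenchymal state were higher in 10 and lower in 1 of 12 tested cases, beside 58.5% and 16.1% of all tested genes. Their median log2 difference was 1.14. Twist1, named after its values were seen, stood at most at 0.315 FPKM in sham. It passed the filter on low values only through UUO, which fixed its direction. Elf3, an epithelial factor, had the largest difference of log2(FPKM + 1) and the highest mean, from 8.35 ± 4.27 to 55.6 ± 7.66 FPKM, with Sham 4 at 15.9 (limma, adjusted p = 2.13e-06). The mesenchymal factor genes Zeb1 and Zeb2, which repress ESRP genes in cultured cells, went from 0.707 ± 0.192 to 2.28 ± 0.398 and from 1.04 ± 0.314 to 4.54 ± 1.27 FPKM. These 2 genes were named after their values were seen (limma, adjusted p = 1.52e-05 and 2.40e-05). Ovol1, a factor that restrains mesenchymal genes, was lower, from 4.002 ± 0.404 to 2.66 ± 0.948 FPKM (limma, adjusted p = 0.0177). Its call was lost after rescaling to equal sums (limma, adjusted p = 0.0742). Ovol2 was higher, from 0.611 ± 0.187 to 1.44 ± 0.379 FPKM (limma, adjusted p = 0.00086), and Grhl1, Grhl2 and Klf5 were called higher too. Ovol2, Grhl1, Grhl2 and Klf5 were named after their values were seen. Limma called 0 of 8 transcripts of these factors on share, with 2 at an unadjusted p below 0.05, beside 2200 of all 14003 shares.

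Among FGF ligands and receptors other than Fgfr2, 2 of 7 tested genes were higher and 3 lower, beside 58.5% and 16.1% of all tested genes, with a median log2 difference of -0.23. Fgf1, a ligand of both FGFR2 forms, was lower, from 58.8 ± 6.81 to 25.5 ± 5.40 FPKM (limma, adjusted p = 2.15e-05). Fgfr1, the receptor of mesenchymal cells, was higher, from 4.81 ± 0.354 to 8.85 ± 0.626 FPKM (limma, adjusted p = 4.45e-06). Of 18 transcripts in the share test 1 was called, Fgfr1-212. It held 19.5 ± 1.73% of the Fgfr1 sum in sham and 7.01 ± 2.15% in UUO libraries (limma, adjusted p = 0.0309). Of the 18, 6 had an unadjusted p below 0.05 (limma), beside 2200 of all 14003 shares.

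Partners of the encoded proteins were higher in 14 and lower in 0 of 18 tested cases, beside 58.5% and 16.1% of all tested genes. Their median log2 difference was 0.95. At an unadjusted p below 0.05 (limma), 1 was lower, beside 2213 of all 13202 tested genes. Numbl, named after its values were seen, stood at most at 0.332 FPKM in sham. It passed the filter on low values only through UUO, which fixed its direction. Spp1, which encodes the CD44 ligand osteopontin, had both the largest difference of log2(FPKM + 1) and the highest mean, from 275 ± 56.3 to 6159 ± 2108 FPKM (limma, adjusted p = 1.09e-07). Limma called 0 of 27 transcripts of partners on share, with 8 at an unadjusted p below 0.05, beside 2200 of all 14003 shares.

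The genes whose deviations from the group means ran most like those of Esrp1 were Csf1, Man1a2 and Plod2, with Pearson correlations of 0.956, 0.952 and 0.941 over 10 libraries and 0.927, 0.918 and 0.921 without Sham 4. For Esrp2 they were Aqp3, Whamm and Hmox2, at 0.951, 0.912 and 0.874 over 10 libraries and 0.966, 0.883 and 0.832 without Sham 4. Aqp3, a water channel of the collecting duct, went from 71.0 FPKM in sham to 20.5 in UUO, while Esrp2 stood at 8.67 and 8.05, since group means were removed before the correlation. These are the highest among 7319 and 7318 genes with a mean of at least 5 FPKM, the points share library and depth, and no test was made.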

How the data were processed

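Total RNA of whole kidneys was made into stranded libraries and sequenced (NovaSeq), per the labels' protocols, with 5 sham and 5 UUO libraries. The submitters' processing notes name cutadapt, HISAT2, StringTie and the build GRCm38, and no source used here gives versions or the annotation. The authors' deposited values, made from the reads with these tools, carry no unit in the file headers and were read as FPKM, because column sums differ from library to library and single-transcript genes carry the value of their transcript. IDs and versions of 95.0% of the transcripts were found in GENCODE M21 at the same locus, and this annotation gave exons and sequences. In 100% of 11180 genes the listed transcripts, weighted by length, summed to at most 1% more than the gene value times its merged exon length, so the part of a gene value they hold could be computed. That part was under 50% in at least 1 library for 1893 genes.

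Features reaching 0.5 FPKM in 5 or more libraries were compared in limma 3.58.1 (R 4.3.3) with a trend on log2(FPKM + 1), which understates differences of low genes. For shares, limma was run on the arcsine of their square root. Genes needed 2 or more listed transcripts whose sum reached 1 FPKM in each library, and transcripts a mean share of 5% or more in sham or UUO. A share was called at a Benjamini-Hochberg adjusted p below 0.05 and a difference of at least 10 points. All p-values were adjusted over the whole table. Both steps were run on simulated data with independent normal noise. For shares the simulation kept neither their bounds nor their fixed sum within a gene, so it does not cover these features of the data. Figures and exon shares were made in Python 3.11.15 (pandas 2.3.3, numpy 2.4.6, matplotlib 3.10.9).

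The genes, the 5 further lists, the tests and the alternatives were chosen with earlier results of these data known. From each list the text names the called gene with the largest difference, the one with the highest mean and, where genes were called both ways, the largest in the rarer direction, and otherwise says when a gene was chosen later. It also names the 3 genes with the largest called share difference, for scale, and for Esrp1 and Esrp2 the 3 genes most like them. Alternatives covered scaling, pseudocount, filters, the transformation of shares, the replicate number and each library left out. The sequence of 1 exon is not reported here.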

Additional observations from a re-analysis of the deposited data

Results flagged for a closer look

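In groups of 5 libraries, 140 sets of values were examined for a library far from the other 4, and 16 stood out. Chance alone marks about 1 in 20 such sets if values are normal and independent. Many sets were shares with bounds, ties or a fixed sum, so the rate for these sets is not known. Of the 16 values, 6 were in Sham 4. That library was the highest of its group for Fgfr2 (3.14 FPKM, others 1.14 to 1.43), Fscn1 (2.93, others 1.58 to 1.92), Esrp2 (9.89, others 8.05 to 8.53), Elf3 (15.9, others 5.79 to 7.37) and Spp1 (372, others 224 to 265). It was the lowest for Csnk1g3 (17.6 FPKM, others 21.4 to 21.8). Sham 4 also had the highest sums of urothelial markers and of distal tubule and collecting duct markers among the sham libraries. Its sums of general epithelial, thick ascending limb, endothelial, fibroblast and leukocyte markers were the highest as well. The endothelial sum was 47.3 FPKM against at most 21.8. Its proximal tubule sum was the lowest, at 1053 FPKM against at least 1376. The part of these markers in the values above was not tested.

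The other values were shares or parts of a gene value in single libraries. In Sham 5, Fscn1-207 held 19.7% and Fscn1-201 80.3%, where the other sham libraries stood at 0% and 100%. These 2 values sum to 100% and mirror each other. In the same library Numb-201 held 9.18% against 4.73% to 6.01%. In UUO 1, Fgfr2-211 held 61.3% against 0.613% to 16.6% in the other UUO libraries, and in UUO 3, Fgfr2-215 held 37.6% against at most 2.40%. Esrp1-204 held 37.8% in Sham 2 against 29.0% to 31.6%, and Esrp1-206 held 15.1% in Sham 1 against 6.22% to 7.71%. In UUO 2 the Numb 33-base exon was present in 26.4% against 18.95% to 21.1%. The listed transcripts held 89.6% of the Numb gene value in UUO 2, against 97.1% or more, and 89.8% of the Esrp1 gene value in Sham 1, against 98.2% or more.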

How the results depend on the processing

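The called shares of the 8 genes were the same 2 Fscn1 transcripts under each transformation, under each left-out library, with other minimum shares, and with Sham 1 and Sham 5 left out together, an alternative added later. With a minimum sum of 5 FPKM the Fscn1 transcripts were no longer tested and 0 were called. Over all genes 105 shares were called, 182 with untransformed shares and 71 to 156 with 1 library left out. Calls on gene level were 7727 higher and 2130 lower, against 4389 and 4523 with median-of-ratios scaling and 3970 and 4793 with quantile normalization. Transcript calls were 6898 higher and 2608 lower, against 4431 and 4358 and against 4388 and 4368. Of the 8 genes 3 to 7 were called with 1 library left out, 7 without Sham 4 and 3 without UUO 1, 2, 3 or 4, where Cd44 no longer passed the filter. Of their transcripts 0 to 8 were called on level, 8 without Sham 4 and at most 1 with any UUO library left out. In the latter case Cd44-202, Cd44-203 and Fscn1-207 no longer passed the filter and were not tested. Percentages of all genes and transcripts called at these settings are not given here, so nothing is read from these counts. Numb turned to -0.21 when scaled by median of ratios, and quantile normalization turned Numb and Enah to -0.12 and -0.27. Of the genes not called, Fgfr2 turned to -0.20 and Esrp1 to -0.22 with quantile normalization, Esrp1 to -0.03 when scaled by median of ratios, and Esrp2 to 0.08 after rescaling to equal sums; the cause was not tested. Of the FGF genes 3 rather than 5 were called after rescaling to equal sums. Without read counts, depth limits could not be given for single values.

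Sham and UUO libraries share replicate numbers, but deviations of same-numbered libraries correlated at 0.03, -0.16, -0.11, -0.26 and 0.15 over 13202 genes, and Sham 5 alone correlated best with its own number. The numbers were therefore not treated as pairs. With the replicate block 3 shares were called over all genes, 0 of them in the 8 genes, and 4 of the 8 genes were called on level. The percentage of all genes called on level with that block is not given here, so nothing is read from the 4.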
